A study of Mus musculus with 16 samples.

Results

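Retinas of wild-type mice exposed to 5000 lux for 1 h were compared with retinas of wild-type mice exposed to 2500 lux, to ask whether the transcriptional response to bright light was already saturated at the lower dose. The comparison used 6 of the 16 Affymetrix arrays of the series, 3 at each dose, chosen by the genotype and dose in their titles and by no measured value. Both groups were Nxnl1+/+ mice of the albino BALB/c strain, of both sexes and aged 11 to 16 weeks. All animals were raised under 50 lux, spent 16 h in darkness before the light and spent 24 h in darkness after it. RNA came from neural retina dissected away from the retinal pigment epithelium (RPE) and was purified by ultracentrifugation in cesium chloride. The reference was the pair of wild-type arrays at 50 lux (n = 2), the light in which the animals lived, taken through the same dark periods. The remaining arrays came from Nxnl1-/- mice of the same strain at 50 lux (3 arrays), 2500 lux (3 arrays) and 5000 lux (2 arrays). These mice lack the gene of the rod-derived cone viability factor, and their arrays served here to choose light-responsive genes without using the levels of wild-type arrays and to test whether the step differed between genotypes. The labels call the arrays biological replicates and do not say whether an array held the RNA of 1 animal or of a pool, so the p-values below measure the spread between these samples. Sex-linked transcripts, given below, point to pools on most arrays of the step.

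In an unpigmented eye bright light bleaches much of the rhodopsin in rods, and the load of retinoids and oxidised lipids that follows can kill photoreceptors over the next days. Müller glia, the radial support cells of the retina, turn reactive in response to cytokines of the interleukin 6 family such as LIF, which act through the receptor subunit gp130 and the transcription factor STAT3. Interferon, complement and chemokine genes are known to follow in glia and microglia while photoreceptor genes decline. A response is saturated when a further rise in dose adds nothing to it, so the answer lies in the size of the step from 2500 to 5000 lux and in its bounds.

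On the 6 arrays the median deposited intensity ran from 15.4 to 15.8, and all levels below are log2 of that intensity. Over the 23320 probe sets that were above log2 4 on at least 2 of the 16 arrays, the root mean square log2 distance between a 2500 lux array and a 5000 lux array ranged from 0.246 to 0.524, with a median of 0.402. Between arrays of the same dose it ranged from 0.379 to 0.404 at 2500 lux and from 0.336 to 0.479 at 5000 lux. The distance to the 50 lux arrays was larger throughout, from 0.527 to 0.649. The distances within and between the bright doses overlapped, and the median within a dose was 0.391 at 2500 lux and 0.386 at 5000 lux.

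Before the step itself, 2 arrays have to be set apart, because each carried more transcripts of a neighbouring tissue than the other arrays of the step. Crystallins are the structural proteins of the lens, and Cryab, a small heat shock protein, is also expressed in the retina. Averaged over the 10 measured crystallin genes other than Cryab, the log2 level was 2.77, 2.58 and 2.61 at 2500 lux and 2.57, 12.69 and 3.49 at 5000 lux. Replicate 2 of the 5000 lux group was therefore far above the other arrays, while the remaining arrays of the step lay at or below log2 4 on this average. Cryaa, the alpha A chain, had log2 levels of 3.15, 2.81 and 2.91 at 2500 lux and 2.81, 13.96 and 5.72 at 5000 lux. Cryba1, a beta crystallin, had levels of 2.62, 2.21 and 2.62 at 2500 lux and 2.21, 14.03 and 4.80 at 5000 lux. Both genes thus stood out on replicate 2 of the 5000 lux group, with a smaller signal on replicate 3 of that group. Grifin, a galectin-like lens fibre protein, was at 2.23, 2.22 and 2.23 at 2500 lux and 2.23, 7.88 and 2.21 at 5000 lux, so it too was above log2 4 on that single array.

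On that array 25 probe sets lay more than 2 log2 units above the highest of the other 5 arrays. Crystallin probe sets made up 12 of them, with another shared by Crygb and Crygc and 1 of Grifin. The others belonged to Nid1 (nidogen, a basement membrane protein), Hspb1 (a small heat shock protein), Fabp5 (a fatty acid binding protein), Cd24a (a cell surface glycoprotein), Fbxw22 and a pair of probe sets shared by Flad1 and the lens gene Lenep. The filter left out further lens transcripts that were high on that array, so the count is a lower limit. Examples were Cryga (12.12), Crygf (11.18), Bfsp1 (8.62) and Mip (8.23), each at 2.21 on the other 5 arrays. No other array of the step had a tested probe set that far above the rest. Replicate 1 of the 2500 lux group had 9 tested probe sets that far below the rest, 4 of them of sex-linked genes. Eif2s3y, a Y-linked translation factor gene, had log2 levels of 2.21, 8.83 and 7.37 at 2500 lux and 8.25, 9.47 and 9.43 at 5000 lux, so that replicate 1 of the 2500 lux group alone was at the lowest value of the files. Xist, an RNA of female cells, had levels of 12.04, 9.88 and 11.49 at 2500 lux and 11.73, 10.47 and 11.36 at 5000 lux on 1 probe set. That probe set was at 2.92 on replicate 1 of the Nxnl1-/- 2500 lux group. All arrays of the step except replicate 1 at 2500 lux thus carried transcripts of both sexes, as a pool of animals would. The doses thus differed in sex make-up, and the median step of the 4 measured sex-linked genes was 1.52, from 0.05 in Xist to 2.92 in Eif2s3y. Eif2s3y was also at 2.21 on replicate 1 of the wild-type 50 lux group. In Nxnl1-/- retinas it was at 2.21 on replicates 2 and 3 at 2500 lux and replicate 1 at 5000 lux. The light response and the difference between genotypes use these arrays, so sex make-up differed there too. The fitted crystallin step reached a median of 3.34 over 11 genes, all 11 above 0, with a median half-width of the 95% interval of 4.85. No crystallin gene passed the test (smallest adjusted p 0.621, Cryaa). Without replicate 2 of the 5000 lux group the median was 0.20. For Cryab the levels of 10.95, 11.68 and 11.57 at 2500 lux and 11.09, 14.24 and 11.23 at 5000 lux stood above the 50 lux levels of 9.67 and 9.54 on all 6 arrays. The light response of Cryab at 2500 lux, 1.79 (SE 0.74), had an adjusted p of 0.15 in limma. The spread for this gene includes the lens-bearing array and Nxnl1-/- arrays that also carried crystallin transcripts. The mean crystallin level was 8.91, 7.12 and 6.17 on the Nxnl1-/- 50 lux arrays. In that genotype it was 8.17 on replicate 2 at 2500 lux and 8.26 on replicate 2 at 5000 lux, and below log2 4 on the rest. These arrays are among those that chose the light-responsive genes.

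RPE genes differed between the doses in the opposite direction. The 14 measured RPE genes had a mean log2 level of 6.99, 7.04 and 7.55 at 2500 lux and 6.65, 6.35 and 6.62 at 5000 lux. On the 50 lux arrays the mean was 7.92 and 7.39, so replicate 3 of the 2500 lux group lay between them. Against 50 lux the median change of these genes was -0.63 at 2500 lux and -1.37 at 5000 lux. The bright doses did not overlap, with replicate 3 the highest array at 2500 lux and replicate 2 the lowest at 5000 lux. Over the 14 genes the median step was -0.75, against -0.03 over all 10916 genes tested. Of the 14, 13 lay below 0, where 6337 of all genes did. None passed an adjusted p of 0.05. At an unadjusted p under 0.05, 7 of 14 were lower at 5000 lux, beside a background of 5.89% of all genes, and in 8 of 14 the groups did not overlap, beside 7.57% of all genes. Over the 9 measured genes that define the RPE the median was -0.78, with 9 of 9 below 0. Without replicate 3 of the 2500 lux group the median over 14 genes was -0.45, and 1 gene was lower at an unadjusted p under 0.05 (background 4.90%). Without replicate 2 of the 5000 lux group it was -0.61, with 2 genes (background 2.75%). Leaving out both arrays gave -0.45 and 0 genes (background 2.09%).

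Rpe65, the isomerohydrolase that regenerates 11-cis retinoid, had log2 levels of 7.95, 7.85 and 8.25 at 2500 lux and 7.32, 6.47 and 7.27 at 5000 lux and a step of -0.999 (SE 0.46, 95% interval -1.99 to -0.01). Lrat, which esterifies retinol for that enzyme, had levels of 5.25, 5.56 and 6.07 at 2500 lux and 4.29, 4.06 and 4.53 at 5000 lux, a step of -1.33 (SE 0.43, 95% interval -2.25 to -0.41) with an adjusted p of 0.573. Ttr, the thyroxine and retinol-binding protein carrier transthyretin, had levels of 12.10, 12.62 and 12.95 at 2500 lux and 11.73, 11.32 and 11.94 at 5000 lux. In these genes every 5000 lux array was below every 2500 lux array. Rgr, an opsin of RPE and Müller glia, had a step of -1.12 (SE 0.38), Rdh5, a retinol dehydrogenase, -0.78 (SE 0.33), and the amino acid transporter Slc6a20a -1.46 (SE 0.47). For the pigment cell genes the step was -0.85 (SE 0.36) in Tyrp1, -0.71 (SE 0.38) in Dct and -0.13 (SE 0.17) in Mitf. The exception among the 14 was the keratin gene Krt18, at 0.32 (SE 0.16), which is not restricted to RPE. In RNA of whole retinas a smaller amount of a cell type and less RNA per cell cannot be told apart, and here the amount of RPE left on each retina cannot be told apart from the level of these genes in it.

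**Figure D1:**
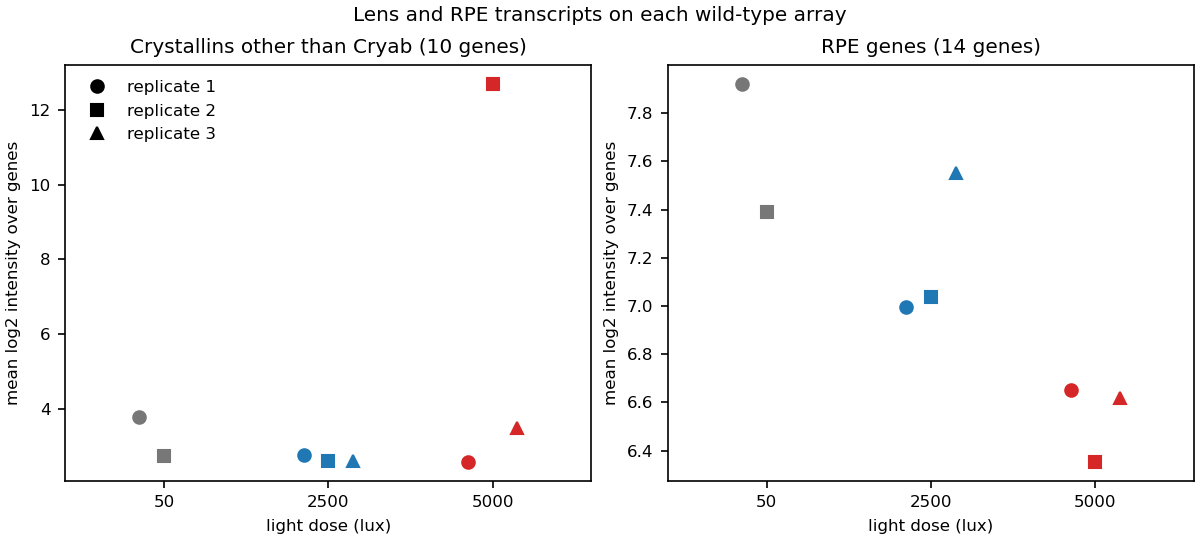
Mean log2 intensity on each wild-type array at 50, 2500 and 5000 lux, over 10 crystallin genes other than Cryab (left) and over 14 RPE genes (right). Each symbol is 1 array, with its shape giving the replicate; replicate 2 at 5000 lux is the only array of the step with a high crystallin level, and the RPE means of the bright doses do not overlap.

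No transcript passed the test in the step. Of 23320 probe sets 0 had an adjusted p under 0.05 in limma (background 0%), and the smallest adjusted p was 0.381. At an unadjusted p under 0.05 there were 1917 probe sets (8.22%), 832 higher (3.57%) and 1085 lower (4.65%) at 5000 lux. That count was 2959 without replicate 1, 1101 without replicate 2 and 1769 without replicate 3 of the 2500 lux group. It was 3234 without replicate 1, 1044 without replicate 2 and 912 without replicate 3 of the 5000 lux group. Leaving out replicate 1 of the 5000 lux group gave 30 probe sets past the adjusted threshold, none of them of a light-induced or light-repressed gene as defined below, and leaving out replicate 3 of the 2500 lux group gave 1, of Ptprb, a receptor tyrosine phosphatase of endothelium.

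The bounds on the step were narrow for most genes. With 1 probe set for each of 10916 genes, the 95% interval lay wholly within a 2-fold change in either direction for 10400 genes (95.3%) and within a 1.5-fold change for 7934 (72.7%). The median half-width of the interval was 0.31 on the log2 scale, a 1.24-fold change. With 3 arrays in each group, the interval of a typical gene could not tell an estimated step smaller than that from no change. This width is not the limit for a call, because the adjusted threshold over 23320 probe sets asks for more. In limma the smallest unadjusted p of the step, 5.14e-05, had an adjusted p of 0.381. Steps larger than this width could therefore go uncalled. The same fit called 975 genes higher (8.93%) and 560 lower (5.13%) at 2500 lux than at 50 lux. These shares are the background for every count of genes called at 2500 lux in the lists below.

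Light-responsive genes were chosen by their response on the Nxnl1-/- arrays, whose levels do not enter the estimate of the wild-type step. The rule of an adjusted p under 0.05 and a log2 change of at least 1, averaged over both bright doses against 50 lux, gave 323 light-induced genes (2.96% of 10916) and 187 light-repressed genes (1.71%). In wild-type retinas 281 of the 323 rose at 2500 lux, and the median light response was 1.73 at 2500 lux and 1.78 at 5000 lux. Their median step was 0.02 (quartiles -0.14 and 0.20), against -0.03 over all genes, with 174 above 0 (53.9%, background 41.9%) and 149 below. None passed the test; 10 were higher (3.10%, background 1.98%) and 8 lower (2.48%, background 5.89%) at an unadjusted p under 0.05. The groups did not overlap in 9 genes that were higher (background 3.45%) and 3 that were lower (background 7.57%). The 95% interval lay within a 2-fold change for 286 of 323 genes (88.5%, background 95.3%) and within a 1.5-fold change for 103 (31.9%, background 72.7%). Its upper bound stayed under a 2-fold increase for 299 genes, and the median upper bound was 1.44-fold. The SE, p and interval of the step share their estimate of the spread with the choice of the genes, because the fit pools all 16 arrays, so these counts and bounds are not independent of the choice. In a fit of the wild-type arrays alone 8 of the 323 were higher (2.48%, background 1.72%) and 6 lower (1.86%, background 5.55%), and 266 intervals (82.4%, background 95.1%) lay within a 2-fold change.

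The mean log2 level of the 323 genes was 5.41 and 5.33 on the 50 lux arrays. It was 7.05, 7.25 and 7.73 at 2500 lux and 7.398, 7.23 and 7.50 at 5000 lux. The bright doses overlapped, and both the lowest and the highest of these 6 arrays were 2500 lux arrays, replicates 1 and 3. The median step was below 0 when any of 4 arrays was left out, at -0.11 without replicate 1 and -0.03 without replicate 2 of the 2500 lux group, and at -0.0012 without replicate 1 and -0.03 without replicate 3 of the 5000 lux group. It was 0.22 without replicate 3 of the 2500 lux group and 0.10 without replicate 2 of the 5000 lux group. At an unadjusted p under 0.05, leaving out replicate 1 of the 2500 lux group gave 26 genes lower (8.05%, background 8.40%) and 7 higher (2.17%, background 4.003%). Leaving out replicate 3 of that group gave 1 lower (0.310%, background 4.90%) and 53 higher (16.4%, background 2.48%). Without replicate 3 of the 2500 lux group and replicate 2 of the 5000 lux group, the arrays highest in RPE and in crystallins, it was 0.27, with 65 genes higher (20.1%, background 1.75%), 0 lower (background 2.09%) and none past the adjusted threshold. The other counts at an unadjusted p under 0.05 with 1 array left out ran from 4 to 23 higher and from 0 to 13 lower.

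**Figure D2:**
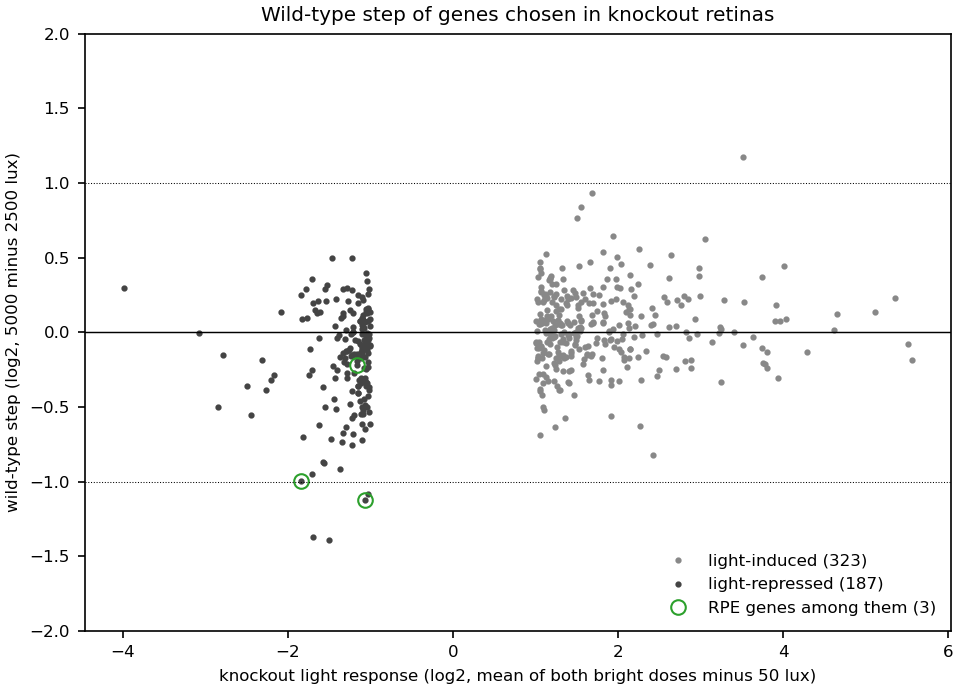
Wild-type step from 2500 to 5000 lux (log2, vertical) against the light response in Nxnl1-/- retinas that chose the genes (log2, horizontal), 1 point per gene; green rings mark the RPE genes among them and dotted lines a 2-fold change. The 323 light-induced genes scatter around a step of 0, with quartiles at -0.14 and 0.20, and the 187 light-repressed genes have quartiles at -0.36 and 0.08.

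Single genes of the glial injury response show the size of the light response beside that of the step. Cebpd, a transcription factor of acute inflammation, had log2 levels of 5.88 and 5.02 at 50 lux, 11.39, 11.62 and 12.08 at 2500 lux and 11.87, 11.64 and 11.86 at 5000 lux. Its light response at 2500 lux was 6.24 (SE 0.23), and its step was 0.09 (SE 0.21, 95% interval -0.36 to 0.54), or 1.07-fold with bounds of 0.779 and 1.46. The bright doses overlapped, and every bright array was far above both 50 lux arrays. Socs3, the feedback inhibitor of gp130 signalling, had levels of 4.77 and 4.15 at 50 lux, 9.48, 9.86 and 10.91 at 2500 lux and 9.86, 10.26 and 10.54 at 5000 lux. The 2500 lux arrays spanned the 5000 lux arrays, and the Socs3 step of 0.14 (SE 0.31, 95% interval -0.54 to 0.81) stood beside a light response of 5.62 (SE 0.35). Stat3, the factor that gp130 activates, had levels of 10.78, 11.02 and 11.36 at 2500 lux and 11.11, 11.01 and 11.06 at 5000 lux after 8.61 and 8.69 at 50 lux, and a step of 0.01 (SE 0.17, 95% interval -0.35 to 0.37). Stat3, Gfap, Edn2 and Osmr were named for their place in the pathway after their values were seen.

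Promoters of the 15 genes with the largest light induction in Nxnl1-/- retinas were searched for the palindrome TTCNNNGAA, to which STAT factors bind, because several of these genes are known targets of that pathway. The window ran from 250 bases before to 50 bases after the gene start in RefSeq on GRCm38.p6, and 12 of the 15 genes had an entry. The motif reads the same on both strands, and 3 of the 12 genes held it, while 2726 of 32851 promoters of this length in the table did (8.298%). The 3 windows are shown 5′ to 3′ on the gene's strand with the motif in capitals, since these genes rose strongly at 2500 lux and can be read beside their steps. That of Socs3 lies at chr11:117969317-117969616 on the minus strand with the motif starting 154 bases before the gene start, that of Steap4 at chr5:7960222-7960521 on the plus strand (116 bases), and that of Prss56 at chr1:87183064-87183363 on the plus strand (152 bases).
Socs3: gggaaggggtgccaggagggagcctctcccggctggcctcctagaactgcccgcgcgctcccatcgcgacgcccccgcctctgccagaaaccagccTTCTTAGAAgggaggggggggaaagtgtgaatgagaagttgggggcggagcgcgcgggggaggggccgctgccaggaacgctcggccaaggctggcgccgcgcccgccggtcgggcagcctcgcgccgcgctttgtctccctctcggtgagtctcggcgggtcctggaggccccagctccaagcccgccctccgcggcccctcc
Steap4: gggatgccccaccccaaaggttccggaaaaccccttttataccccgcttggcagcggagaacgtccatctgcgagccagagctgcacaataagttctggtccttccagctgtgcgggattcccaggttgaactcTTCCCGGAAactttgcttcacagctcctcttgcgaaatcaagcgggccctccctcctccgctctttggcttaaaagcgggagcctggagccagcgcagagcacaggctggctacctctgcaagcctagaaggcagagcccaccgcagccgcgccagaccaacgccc
Prss56: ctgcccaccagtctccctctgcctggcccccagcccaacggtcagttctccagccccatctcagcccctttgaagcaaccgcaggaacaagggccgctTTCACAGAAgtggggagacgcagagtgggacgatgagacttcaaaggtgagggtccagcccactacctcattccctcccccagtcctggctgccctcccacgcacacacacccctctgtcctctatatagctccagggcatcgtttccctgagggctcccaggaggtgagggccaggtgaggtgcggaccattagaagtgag
A match describes the letters and not a bound site, and the windows without a match say nothing of binding elsewhere.

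Steap4, a metalloreductase, had log2 levels of 5.97, 6.50 and 7.25 at 2500 lux and 6.89, 5.75 and 6.37 at 5000 lux, against 2.66 and 2.80 at 50 lux, with a step of -0.24 (SE 0.30, 95% interval -0.88 to 0.41). Prss56, a serine protease of Müller glia, had levels of 7.67, 8.48 and 10.12 at 2500 lux and 8.41, 8.26 and 9.37 at 5000 lux. Its 2500 lux arrays alone covered a wider range than the 5000 lux arrays, and the step of -0.08 (SE 0.69, 95% interval -1.55 to 1.404) was loosely bounded. Where the 50 lux levels lay below log2 4, as in Steap4, a light response is measured against a level under the filter and is best read as a rise to the bright level.

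In acute phase genes and other genes of reactive glia the interval of the step included 0. Lcn2, the iron-carrier lipocalin 2, had levels of 4.69 and 4.50 at 50 lux, 9.41, 9.99 and 11.11 at 2500 lux and 10.45, 9.63 and 9.88 at 5000 lux, with a step of -0.18 (SE 0.36, 95% interval -0.96 to 0.60). Serpina3n, a serine protease inhibitor, had a step of -0.30 (SE 0.28, 95% interval -0.92 to 0.31), S100a6, a calcium-binding protein, 0.02 (SE 0.28, 95% interval -0.58 to 0.61), and Lgals3, galectin 3, 0.12 (SE 0.33, 95% interval -0.60 to 0.84). Gfap, the intermediate filament of reactive glia, had levels of 7.09, 8.24 and 8.50 at 2500 lux and 7.86, 8.003 and 7.83 at 5000 lux after 5.09 and 5.09 at 50 lux. Its 3 arrays at 5000 lux lay inside the range of the 2500 lux arrays, and its step was -0.05 (SE 0.31, 95% interval -0.73 to 0.63). Edn2, endothelin 2, which injured photoreceptors release, had levels of 10.04, 9.90 and 10.53 at 2500 lux and 10.49, 10.36 and 10.26 at 5000 lux and a step of 0.22 (SE 0.30, 95% interval -0.43 to 0.86). Osmr, the oncostatin M receptor, had a step of -0.17 (SE 0.24, 95% interval -0.69 to 0.35).

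Of 24 genes measured in the list of glial reactivity and injury cytokines, 21 rose at 2500 lux and the median light response was 2.78. Their median step was -0.05, with 11 above and 13 below 0 and none at an unadjusted p under 0.05. Its sign turned with the setting, from -0.24 without replicate 1 to 0.20 without replicate 3 of the 2500 lux group. The smallest p belonged to Fgf2, a survival factor for photoreceptors, with levels of 4.90, 4.70 and 5.34 at 2500 lux and 6.04, 4.79 and 5.66 at 5000 lux and a step of 0.52 (SE 0.28, 95% interval -0.08 to 1.12). On Fgf2 replicate 1 of the 5000 lux group was the highest and replicate 2 lay within the 2500 lux range. Cp, the copper oxidase ceruloplasmin, had levels of 12.26, 12.67 and 12.79 at 2500 lux and 12.56, 12.13 and 12.47 at 5000 lux, a step of -0.18 (SE 0.15) and a light response of 2.95 (SE 0.17). Tnfrsf12a, the TWEAK receptor, had a step of 0.21 (SE 0.18) on its brighter probe set. Cntfr, a receptor for ciliary neurotrophic factor, had -0.76 (SE 0.40, 95% interval -1.63 to 0.11), and it did not rise with light (light response -0.33 (SE 0.45)).

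**Figure D3:**
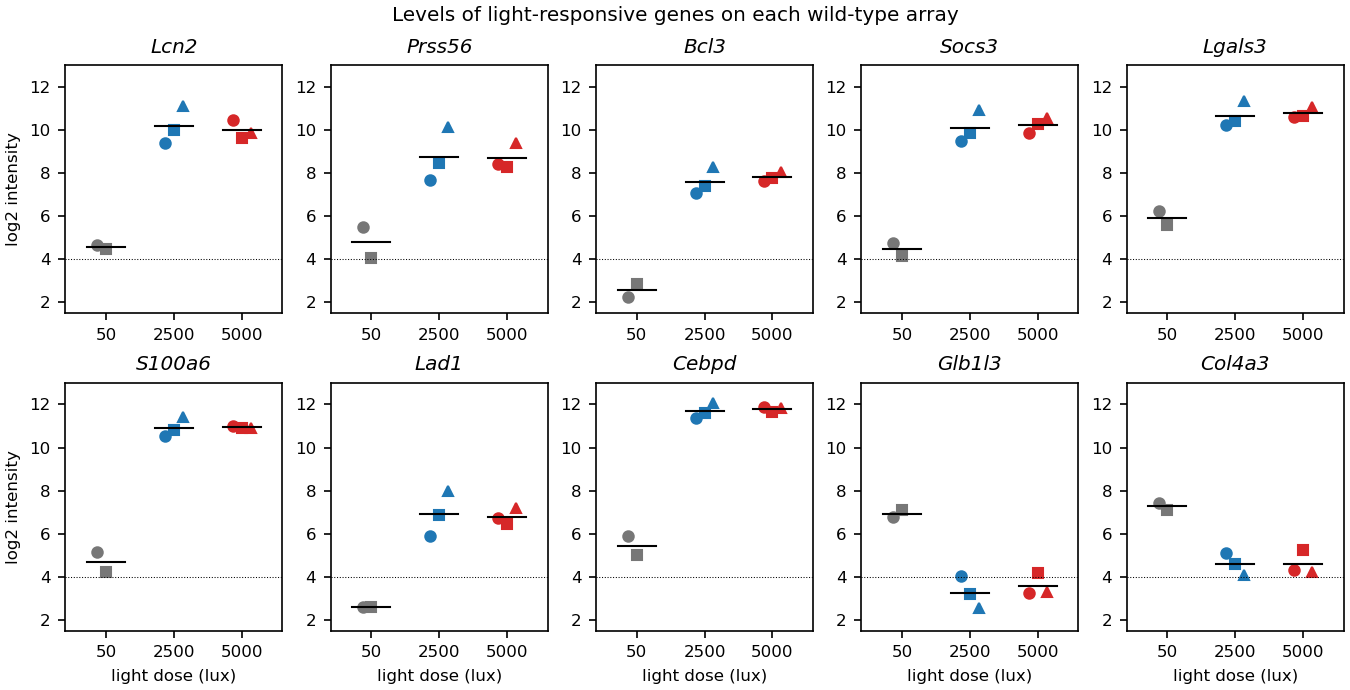
Log2 intensity of 8 light-induced and 2 light-repressed genes on each wild-type array at 50, 2500 and 5000 lux; each symbol is 1 array, its shape gives the replicate, the black bar is the group mean and the dotted line is log2 4. Cebpd and Socs3 move from between 4.15 and 5.88 at 50 lux to between 9.48 and 12.08 at the bright doses, whose arrays overlap.

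**Figure D4:**
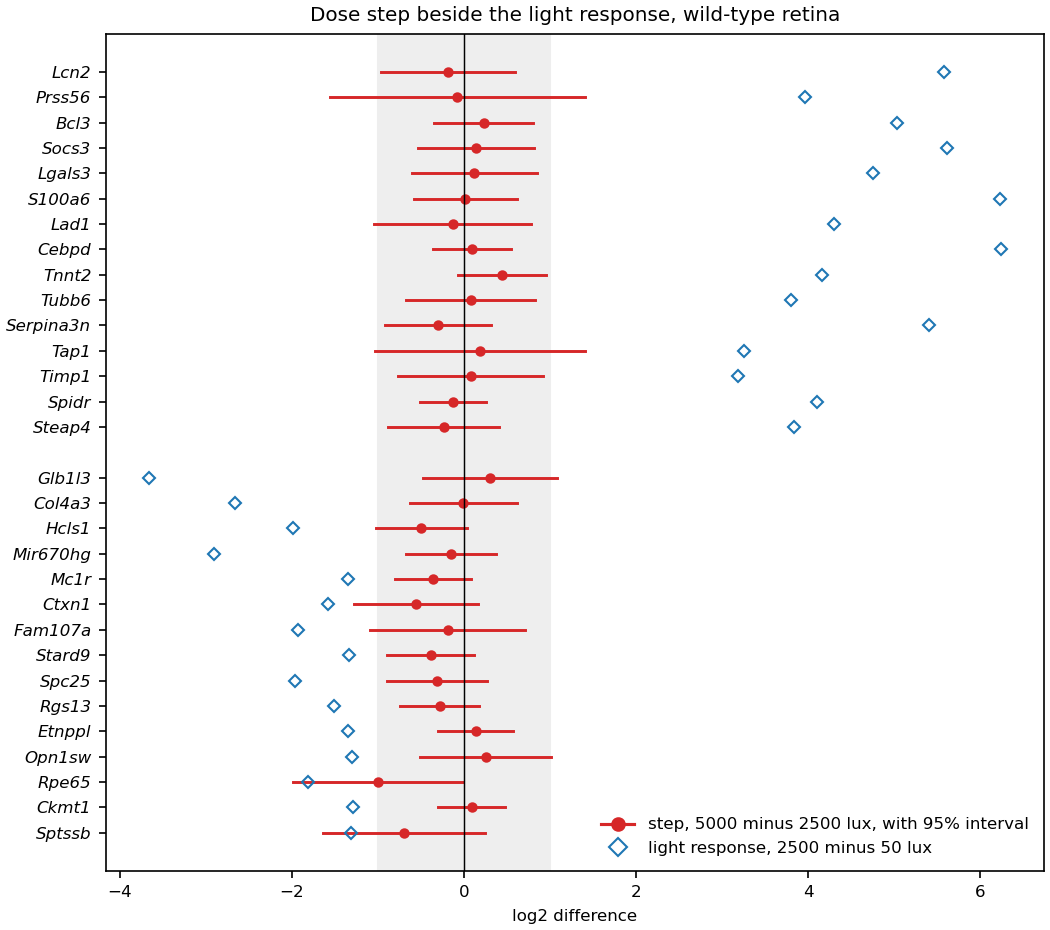
Step (5000 minus 2500 lux) with its 95% interval (red, log2) beside the light response at 2500 lux (blue diamonds, log2) for the 15 light-induced and 15 light-repressed genes with the largest response in Nxnl1-/- retinas; the grey band is a 2-fold change either way. All light-induced diamonds lie above 3, while the red intervals of all 30 genes except Rpe65 include 0.

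Interferon-response genes rose as strongly at 2500 lux, with a median light response of 2.76 and 18 of 19 called. Their median step was 0.00, with 10 above and 9 below 0 and none at an unadjusted p under 0.05. The interval lay within a 2-fold change for 18 of 19 (94.7%, background 95.3%). The median step was -0.19 without replicate 1 and 0.29 without replicate 3 of the 2500 lux group. Ifit1, an antiviral RNA-binding protein, had levels of 4.55, 5.27 and 5.68 at 2500 lux and 4.93, 3.83 and 4.85 at 5000 lux, a step of -0.62 (SE 0.32, 95% interval -1.32 to 0.07). Psmb8, a subunit of the immunoproteasome, had levels of 6.24, 5.95 and 6.86 at 2500 lux and 6.63, 6.37 and 7.0 at 5000 lux, a step of 0.32 (SE 0.22, 95% interval -0.16 to 0.80). Stat2, which carries the type I interferon signal, had 0.36 (SE 0.23, 95% interval -0.14 to 0.85). In Ifit1 and Psmb8 the doses overlapped, with replicate 2 the lowest 5000 lux array.

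Of 10 complement and antigen presentation genes all 10 rose at 2500 lux (median 2.09), and their median step was -0.08. Tapbp, the peptide-loading factor tapasin, had levels of 9.71, 9.99 and 10.33 at 2500 lux and 10.24, 10.33 and 10.43 at 5000 lux. Its step of 0.32 (SE 0.14, 95% interval 0.02 to 0.63) was the 1 of 10 at an unadjusted p under 0.05, with an adjusted p of 0.602, and the groups overlapped. B2m, the light chain of MHC class I, had levels of 10.43, 10.97 and 11.004 at 2500 lux and 10.79, 10.45 and 10.69 at 5000 lux and a step of -0.16 (SE 0.20, 95% interval -0.59 to 0.27). C1qb, a chain of the first complement component, had -0.45 (SE 0.35, 95% interval -1.20 to 0.30), and Serping1, the inhibitor of that component, -0.21 (SE 0.25, 95% interval -0.74 to 0.33).

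Chemokines and cytokines had 7 of 9 genes called at 2500 lux and a median step of -0.06. In the step 8 of 9 were below 0, where 6337 of 10916 genes were, and none had an unadjusted p under 0.05. Ccl12, a monocyte attractant, had levels of 5.73, 5.62 and 5.94 at 2500 lux and 5.46, 5.30 and 5.53 at 5000 lux, with both 50 lux arrays at the lowest value of the files, log2 2.21. All 5000 lux arrays lay below all 2500 lux arrays, but the step of -0.33 (SE 0.17, 95% interval -0.69 to 0.03) had an adjusted p of 0.614. Csf1, the growth factor of microglia, had -0.33 (SE 0.24, 95% interval -0.85 to 0.18), and Cxcl10, an interferon-induced chemokine, -0.25 (SE 0.24, 95% interval -0.77 to 0.27). Cx3cl1, by which neurons signal to microglia, did not pass the test at 2500 lux (light response -0.09 (SE 0.27)) and had a step of -0.42 (SE 0.24, 95% interval -0.94 to 0.10).

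Immediate early and AP-1 genes, which encode short-lived transcription factors, had steps mostly above 0. Their median light response was 0.68 at 2500 lux, with 6 of 14 called, and 0.99 at 5000 lux. The median step was 0.13, with 12 of 14 above 0, where 4572 of 10916 genes were. It was -0.08, with 6 above 0, once replicate 1 of the 2500 lux group, the array of the step without Eif2s3y signal, was left out. With the Eif2s3y level as a covariate the median was 0.09 here and 0.01 over the light-induced genes. Btg2, an antiproliferative early gene, had levels of 9.99, 9.68 and 9.37 at 2500 lux and 10.08, 10.37 and 10.53 at 5000 lux, a step of 0.65 (SE 0.19, 95% interval 0.24 to 1.06). Ier2, another early response gene, had levels of 8.30, 8.27 and 7.69 at 2500 lux and 8.57, 8.74 and 8.67 at 5000 lux, a step of 0.57 (SE 0.21, 95% interval 0.11 to 1.03). In both genes every 5000 lux array was above every 2500 lux array, with adjusted p of 0.573 and 0.591. A second probe set of Btg2 gave a step of 0.25 (SE 0.18). Fos, a subunit of AP-1, had levels of 10.77, 11.88 and 10.43 at 2500 lux and 11.66, 11.36 and 11.36 at 5000 lux, so that replicate 2 of the 2500 lux group was the highest array. Its step was 0.43 (SE 0.34, 95% interval -0.29 to 1.15). Klf6, a zinc finger factor, had -0.28 (SE 0.15, 95% interval -0.61 to 0.05).

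A step near 0 does not by itself separate a saturated response from one that grows with the logarithm of dose, because from 2500 to 5000 lux is 1 doubling and from 50 to 2500 lux is 5.64. If each light response had grown evenly with log2 dose, the median light-induced gene would have had a step of 0.31. The difference between the observed step and that value was tested for every probe set as 1 contrast. In limma 0 of 23320 probe sets passed (background 0%, smallest adjusted p 0.491), and 2305 had an unadjusted p under 0.05. Among the 323 light-induced genes the median difference was -0.31, and 271 lay below 0 (83.9%, against 59.1% of all genes). At an unadjusted p under 0.05, 85 of them were below the even growth (26.3%, background 7.35%) and 0 above it (background 2.51%).

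These values moved most with replicate 3 of the 2500 lux group, of the arrays of the step the highest in both light-induced and RPE genes. Without it the median difference was -0.10, with 27 genes below (8.36%, background 5.26%) and 9 above (2.79%, background 2.22%) at an unadjusted p under 0.05. Without replicate 2 of the 5000 lux group the median was -0.25 and 49 genes were below (15.2%, background 3.55%). Without both of these arrays it was -0.06, with 17 genes below (5.26%, background 2.46%) and 12 above (3.72%, background 1.28%). Leaving out replicate 1 of the 2500 lux group instead gave -0.48 and 131 genes below (40.6%, background 10.2%). With the mean RPE level as a covariate the median was -0.16 and 28 genes were below (8.67%, background 2.18%).

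In 100 of the 323 genes (31.0%), Ccl12, Serping1, Fgf2 and Tnnt2 among them, both 50 lux arrays were at or under log2 4, so the light response and the even-growth step of those genes are lower limits and no single value is given for them. The genes below were picked, after their values were seen, from genes above log2 4 on both 50 lux arrays. Cebpd differed from even growth by -1.01 (95% interval -1.51 to -0.52), where even growth would have given a step of 1.11. Without replicate 3 of the 2500 lux group its difference was -0.79 (-1.30 to -0.28). Sulf1, a heparan sulfatase, is not among the 323 genes. It had levels of 9.08, 9.16 and 9.27 at 2500 lux and 9.14, 8.87 and 8.95 at 5000 lux after 7.70 and 7.59 at 50 lux. It differed by -0.45 (95% interval -0.68 to -0.23), and by -0.40 (-0.65 to -0.15) without that array. For Stat3 the difference was -0.42 (95% interval -0.82 to -0.02), and without that array, -0.24 (-0.64 to 0.17), the interval included 0. Edn2 had -0.92 (95% interval -1.63 to -0.21) and, without that array, -0.70 (-1.50 to 0.09). For Rfx2, a factor of cilium genes, the difference was 0.12 (95% interval -0.24 to 0.47), an interval that includes even growth. None of these genes passed the adjusted threshold, and the adjusted p of Cebpd and Sulf1 was 0.49 in limma.

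The 187 light-repressed genes had a median light response of -0.85 at 2500 lux, where 90 were called, and -1.002 at 5000 lux. Their median step was -0.12, with 124 below 0 and 63 above it (33.7% above, background 41.9%). None passed the test; 21 were lower at an unadjusted p under 0.05 (11.2%, background 5.89%) and 2 higher (1.07%, background 1.98%). The list holds 3 RPE genes, and without them the median was -0.12 with 19 lower. Without the 2 arrays set apart above, the median was -0.25 and 13 genes were lower (6.95%, background 2.09%), and without replicate 3 of the 5000 lux group it was -0.03 with 12 (6.42%, background 2.73%). The count of lower genes was 12 (6.42%, background 3.13%) without replicate 2 of the 2500 lux group, and with 1 of the other arrays left out it ran from 20 to 29.

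Rod phototransduction genes were lower after light, 9 of 13 passing the test at 2500 lux with a median of -0.53, and their median step was -0.02. All 13 intervals lay within a 2-fold change (background 95.3%) and 10 within a 1.5-fold change (76.9%, background 72.7%), shares near those of all genes. Pde6a, which encodes a catalytic chain of rod phosphodiesterase, had levels of 12.16 and 11.93 at 50 lux, 11.04, 11.03 and 10.98 at 2500 lux and 10.83, 10.63 and 10.39 at 5000 lux. It was the 1 rod gene whose bright doses did not overlap (7.69%, background 7.57% lower). Its step was -0.40 (SE 0.18, 95% interval -0.78 to -0.02) with an adjusted p of 0.602. Sag, rod arrestin, had levels of 14.51, 14.35 and 14.39 at 2500 lux and 14.40, 14.48 and 14.56 at 5000 lux, and Gnb1, the beta subunit of transducin, 13.95, 13.58 and 13.73 at 2500 lux and 13.83, 13.96 and 13.78 at 5000 lux. In Sag and Gnb1 the doses overlapped, with steps of 0.07 (SE 0.09, 95% interval -0.13 to 0.27) and 0.11 (SE 0.11, 95% interval -0.12 to 0.34). Grk1, rhodopsin kinase, had a step of 0.21 (SE 0.20, 95% interval -0.22 to 0.64).

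Cone phototransduction genes had a median light response of -0.42 and a median step of 0.13, which was -0.05 without replicate 3 of the 2500 lux group and -0.11 without both arrays set apart. Opn1sw, the short-wave cone opsin, had levels of 11.97 and 12.0 at 50 lux, 11.57, 10.56 and 9.92 at 2500 lux and 11.07, 11.16 and 10.58 at 5000 lux, with a step of 0.25 (SE 0.35, 95% interval -0.51 to 1.02). Arr3, cone arrestin, fell at 2500 lux (-1.49 (SE 0.29)) and had levels of 10.12, 9.43 and 9.12 at 2500 lux and 9.88, 9.75 and 9.99 at 5000 lux. For both genes replicate 3 was the lowest 2500 lux array, and the 5000 lux arrays lay inside the 2500 lux range. Gnb3, a G protein subunit of cones and ON bipolar cells, rose at 2500 lux by 1.13 (SE 0.14) and had a step of 0.25 (SE 0.12, 95% interval -0.01 to 0.51). Opn1mw, the middle-wave opsin, had -0.28 (SE 0.19, 95% interval -0.69 to 0.14).

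Genes shared by rods and cones had 14 of 21 called lower at 2500 lux (median -0.65) and a median step of 0.05. Of their intervals 17 lay within a 1.5-fold change (81.0%, background 72.7%). Prph2, peripherin of the disc rim, was the exception in size. Its levels were 13.30, 11.99 and 12.84 at 2500 lux and 12.75, 7.94 and 11.41 at 5000 lux, so replicate 2 of the 5000 lux group, the array with lens transcripts, was far below the rest and the step of -2.01 (SE 0.85, 95% interval -3.85 to -0.17) was loosely bounded. Rdh12, a photoreceptor retinol dehydrogenase, had 0.29 (SE 0.13, 95% interval 0.00 to 0.57), and Guca1a, the activator of retinal guanylate cyclase, 0.23 (SE 0.15, 95% interval -0.08 to 0.55). Nxnl1 itself, on its brighter probe set, had levels of 7.61 and 7.53 at 50 lux, 6.65, 6.84 and 5.83 at 2500 lux and 6.11, 6.43 and 5.64 at 5000 lux. The doses overlapped and the step was -0.38 (SE 0.28, 95% interval -0.97 to 0.21). Its paralogue Nxnl2 had a step of 0.01 (SE 0.10, 95% interval -0.22 to 0.23).

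Müller glia genes that keep the retina in balance had a median step of -0.02, and 15 of 16 intervals lay within a 1.5-fold change (93.75%, background 72.7%). Rlbp1, the cellular retinaldehyde-binding protein, fell at 2500 lux (light response -1.37 (SE 0.12)) and had levels of 11.21, 11.12 and 10.97 at 2500 lux and 10.99, 10.94 and 10.87 at 5000 lux, with a step of -0.16 (SE 0.10, 95% interval -0.39 to 0.06). Aqp4, the water channel, had -0.12 (SE 0.15, 95% interval -0.43 to 0.20) and Kcnj10, the potassium channel of Müller end feet, 0.11 (SE 0.10, 95% interval -0.10 to 0.32). For bipolar cell genes the median step was -0.06 over 11 genes, none at an unadjusted p under 0.05.

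Genes of inner retinal neurons other than bipolar cells lay mostly below 0 in the step, although none passed the test. All 11 of 11 ganglion cell genes were below 0 (median -0.36), as were 8 of 9 amacrine genes (median -0.24) and 5 of 5 horizontal cell genes (median -0.35), where 6337 of 10916 genes were. At an unadjusted p under 0.05 there were 1, 1 and 2 genes in these lists, beside a background of 5.89%. The mean level of the ganglion cell genes was 8.997, 9.19 and 8.90 at 2500 lux and 9.06, 8.41 and 8.48 at 5000 lux. Replicates 2 and 3 of the 5000 lux group were the low arrays, and replicate 1 of that group lay within the 2500 lux range. Without replicate 1 of the 5000 lux group the ganglion median was -0.71 with 5 genes lower (background 9.66%), without replicate 2 it was -0.22, without replicate 3 -0.25, and without replicate 2 of the 2500 lux group -0.20. With the mean RPE level as a covariate it was -0.05 and with the crystallin level -0.17.

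Pou4f1, a transcription factor of ganglion cells, had levels of 8.11, 8.56 and 8.27 at 2500 lux and 8.04, 7.27 and 7.44 at 5000 lux, a step of -0.73 (SE 0.24, 95% interval -1.25 to -0.21) and an adjusted p of 0.573. All its 5000 lux arrays were below all its 2500 lux arrays. Slc17a6, the vesicular glutamate transporter of ganglion cells, had levels of 10.09, 10.44 and 9.91 at 2500 lux and 10.17, 8.89 and 9.17 at 5000 lux, and Thy1, a surface glycoprotein of these cells, 8.73, 9.15 and 9.08 at 2500 lux and 8.76, 8.03 and 8.12 at 5000 lux. In Slc17a6 and Thy1 replicates 2 and 3 of the 5000 lux group were low and replicate 1 was not. Slc32a1, the transporter that loads GABA and glycine into vesicles, had a step of -0.60 (SE 0.24, 95% interval -1.11 to -0.08), Gad1, a GABA-synthesising enzyme, -0.36 (SE 0.19, 95% interval -0.77 to 0.04), and Calb1, calbindin of horizontal cells, -0.48 (SE 0.22, 95% interval -0.95 to -0.02).

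Endothelial and pericyte genes were below 0 in 9 of 9 (median -0.28) and microglial genes in 7 of 9 (median -0.30), where 6337 of 10916 genes were. Without replicate 2 of the 5000 lux group these medians were -0.15 and -0.04, and without replicate 1 of that group -0.42 and -0.46. Kdr, the VEGF receptor of endothelium, had levels of 9.69, 10.04 and 10.03 at 2500 lux and 9.66, 9.52 and 9.61 at 5000 lux after 8.78 and 8.64 at 50 lux. It rose with light by 1.21 (SE 0.15) at 2500 lux, and its bright doses did not overlap, with a step of -0.33 (SE 0.13, 95% interval -0.61 to -0.04) and an adjusted p of 0.591. Tyrobp, the adaptor of activating receptors in microglia, had levels of 5.75, 5.65 and 5.65 at 2500 lux and 5.19, 5.02 and 4.96 at 5000 lux after 3.84 and 4.03 at 50 lux, a step of -0.63 (SE 0.24, 95% interval -1.13 to -0.12). Here too every 5000 lux array was below every 2500 lux array, with an adjusted p of 0.591. Whether the inner retinal, vascular and microglial genes moved with the RPE and lens levels of the same arrays was not tested beyond the covariate values given.

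**Figure D5:**
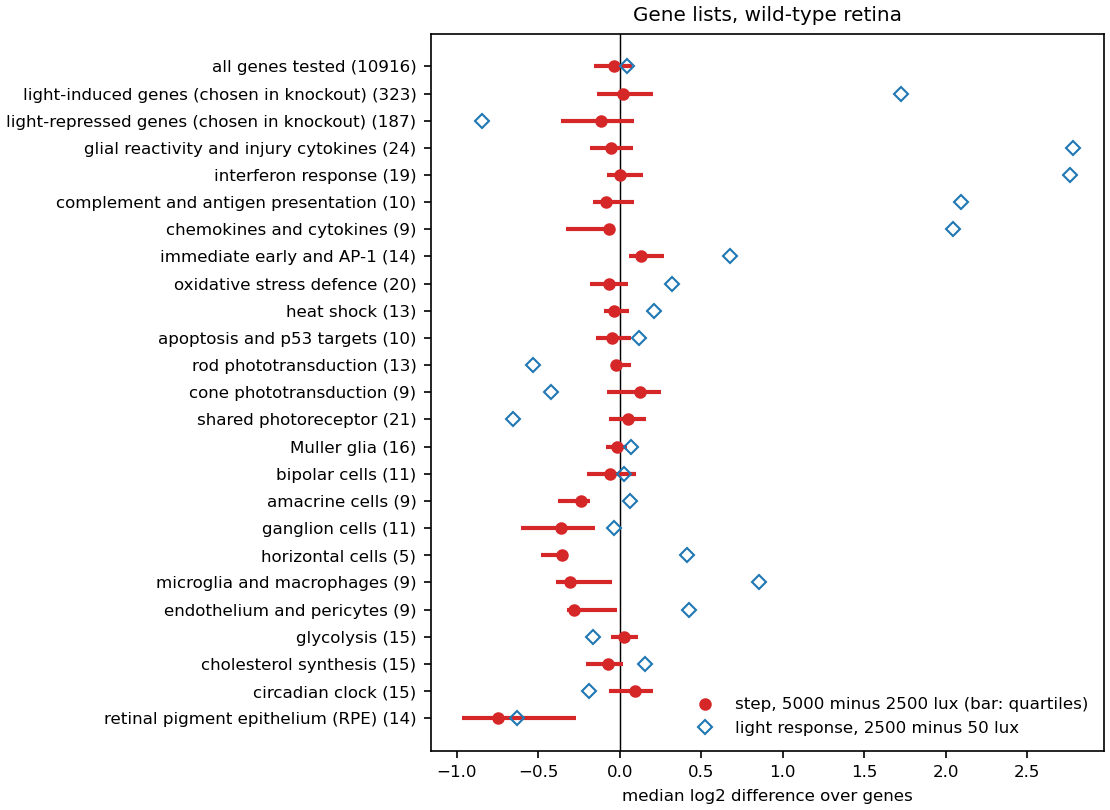
Median log2 difference over the genes of each list in wild-type retinas, for the step from 2500 to 5000 lux (red, bar from the lower to the upper quartile) and the light response at 2500 lux (blue diamonds), with the number of genes in parentheses. The glial and interferon lists lie at 2.78 and 2.76 in the light response and at -0.05 and 0.00 in the step, and RPE genes have the lowest median step of the lists drawn, -0.75.

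Oxidative stress defence had a median step of -0.07 over 20 genes, heat shock -0.04 over 13, apoptosis and p53 targets -0.05 over 10, cholesterol synthesis -0.07 over 15, glycolysis 0.02 over 15 and circadian clock genes 0.09 over 15. Txn1, thioredoxin, had levels of 10.77, 11.11 and 11.09 at 2500 lux and 10.70, 10.40 and 10.61 at 5000 lux, after 10.51 and 10.35 at 50 lux. It rose at 2500 lux by 0.56 (SE 0.16) and its 5000 lux arrays lay below all its 2500 lux arrays, with a step of -0.42 (SE 0.14, 95% interval -0.73 to -0.12) and an adjusted p of 0.573. Sod2, mitochondrial superoxide dismutase, had the same order of levels, a light response of 0.70 (SE 0.13) and a step of -0.25 (SE 0.12, 95% interval -0.50 to 0.00). Per1, a core clock repressor that light induces, had levels of 6.61, 7.02 and 6.69 at 2500 lux and 7.09, 7.31 and 7.27 at 5000 lux, a step of 0.45 (SE 0.15, 95% interval 0.13 to 0.76). Per2 had 0.39 (SE 0.15, 95% interval 0.06 to 0.71), and both Per genes were higher on every 5000 lux array than on any 2500 lux array. Hspb1 stood high on the lens-bearing array alone, with levels of 4.08, 4.63 and 4.08 at 2500 lux and 4.24, 7.38 and 3.85 at 5000 lux.

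By the rule for a comparison in which no gene passes, the genes with the smallest p are named as not passing. Ddx41, a helicase that senses nucleic acids, had levels of 6.37, 6.32 and 6.396 at 2500 lux and 6.74, 7.09 and 6.97 at 5000 lux, a step of 0.57 (SE 0.10, 95% interval 0.36 to 0.78) and an adjusted p of 0.381. Cpeb1, a regulator of poly(A) tails, had levels of 7.15, 7.09 and 6.90 at 2500 lux and 7.50, 7.79 and 7.90 at 5000 lux, a step of 0.68 (SE 0.13, 95% interval 0.41 to 0.95) and the same adjusted p. In both the 5000 lux arrays lay above all other wild-type arrays. Prpf4, a splicing factor, had a step of 0.54 (SE 0.10, 95% interval 0.32 to 0.75), but its other probe set gave -0.07 (SE 0.11).

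Setd5, a chromatin regulator, had the smallest p of all, with levels of 8.14, 7.99 and 7.87 at 2500 lux and 6.94, 6.36 and 6.15 at 5000 lux after 8.89 and 8.17 at 50 lux. Every 5000 lux array was below every 2500 lux array, the step was -1.52 (SE 0.26, 95% interval -2.07 to -0.96) and the adjusted p 0.381, while a second probe set of Setd5 gave -0.07 (SE 0.15). Next among the lower genes were Rab40b, a small GTPase, at -0.68 (SE 0.14), Dcdc2a, a doublecortin family gene, at -0.95 (SE 0.20), Nol4 at -0.58 (SE 0.12), Fpgt at -0.53 (SE 0.12) and Slc9a7, a Golgi sodium and proton exchanger, at -0.90 (SE 0.20). Cygb, cytoglobin, had levels of 8.09, 8.63 and 8.72 at 2500 lux and 7.78, 7.61 and 7.55 at 5000 lux, a step of -0.83 (SE 0.20, 95% interval -1.27 to -0.39). Rfx2 was the 1 light-induced gene among the 10 smallest p values of higher genes, with levels of 4.28 and 4.26 at 50 lux, 6.45, 6.84 and 7.02 at 2500 lux and 7.17, 7.32 and 7.51 at 5000 lux. Its step of 0.56 (SE 0.15, 95% interval 0.23 to 0.88) added to a light response of 2.50 (SE 0.17), and its 5000 lux arrays lay above its 2500 lux arrays, with an adjusted p of 0.573.

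In Nxnl1-/- retinas the same step, over 3 and 2 arrays, had 1 probe set higher and 17 lower past the adjusted threshold, and the median step of the 323 genes was -0.55, with 290 below 0; those arrays chose the 323 genes, so this is a description. The test of the difference between genotypes called 2 of 23320 probe sets (0.00858%), both higher in the wild-type step, and neither was called once any 1 of the 5 Nxnl1-/- arrays of the step was left out.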

How the data were processed

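All 16 arrays were used as the intensity that the authors deposited for each probe set, a linear value. GCRMA is named in the submitters' processing notes; it corrects background, normalizes and summarises probes together, and no version or setting is stated in the sources used here. Log2 was taken of each value, and probe sets above log2 4 on at least 2 arrays were kept (23320 of 45037). The brightest of the probe sets with 1 gene symbol, by its mean over 16 arrays, stood for each of 10916 genes. A mean for each of 6 groups was fitted over the 16 arrays with limma 3.58.1 (R 4.3.3; 10 residual and 3.18 prior degrees of freedom), so all groups share 1 estimate of the spread. Benjamini-Hochberg adjustment ran over every tested probe set. The fit was tested on simulated data. The named genes were the 10 smallest p values in each direction, as no gene passed, the 15 largest light responses each way in Nxnl1-/- retinas, Nxnl1, Nxnl2, the 4 smallest p values of each list and every crystallin, lens fibre and RPE gene; the text describes a selection of them, and besides them Stat3, Gfap, Edn2 and Osmr and genes that stood out on 1 array or under 1 setting. The members and lists were chosen with earlier results of these data known. Alternatives were other filters, scalings, fits and covariates and leaving out each wild-type array, and for the difference between genotypes each Nxnl1-/- array at the bright doses. The number of arrays limits the precision.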

Additional observations from a re-analysis of the deposited data

Results flagged for a closer look

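The step from 2500 to 5000 lux differed between genotypes, by the test of the difference itself, in 2 probe sets. For the dimmer probe set of Tnfrsf12a, the receptor of the cytokine TWEAK, the wild-type log2 levels were 5.13, 5.14 and 5.14 at 2500 lux and 5.47, 5.32 and 5.97 at 5000 lux, and the wild-type step was 0.45 (SE 0.16). In Nxnl1-/- retinas the step was -1.42 (SE 0.17), so the difference, wild type minus Nxnl1-/-, was 1.87 (SE 0.23, adjusted p 0.0393). With the replicate block its adjusted p was 0.0793. The brighter probe set of Tnfrsf12a had an adjusted p of 0.08 for the difference.

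The other called probe set, of Ednrb, the endothelin receptor B, is not the brightest of that gene, and the brightest did not pass this test. On the called probe set the wild-type levels were 2.63, 2.63 and 2.98 at 2500 lux and 3.36, 2.74 and 4.08 at 5000 lux. They were below log2 4 on all but 1 of these arrays. In Nxnl1-/- retinas they were 4.74, 4.58 and 4.95 at 2500 lux and 2.63 and 2.605 at 5000 lux, so the lower end of the Nxnl1-/- step also lay under log2 4, and the sizes that follow are fitted values against a level not above the filter. The wild-type step was 0.65 (SE 0.24) and that of Nxnl1-/- retinas -2.14 (SE 0.27), a difference of 2.79 (SE 0.37, adjusted p 0.0393). Neither wild-type step passed the adjusted threshold, with adjusted p of 0.587 and 0.591. The 5000 lux group of Nxnl1-/- retinas held 2 arrays. With 1 Nxnl1-/- array of the step left out, neither gene passed, with adjusted p from 0.0675 to 0.243 for Tnfrsf12a and from 0.0695 to 0.243 for Ednrb. Without a filter on low values they had 0.0775 and 0.151. Of the alternative values for both genes 26 no longer passed the threshold and 19 did, and all kept their direction.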

How the results depend on the processing

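Limits first. The step rests on 3 arrays for each dose, 1 of which carries lens and 1 the most RPE transcripts, and the arrays highest and lowest in light-induced genes are both 2500 lux arrays. The files give no counts, so precision is set by the number of arrays. The interval of the median gene could not tell an estimated step under about 1.24-fold from no change. At that spread the adjusted threshold asked for a larger step. With 1 array left out a dose rests on 2.

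The count of probe sets past the adjusted threshold in the step was 0 under all alternatives that kept the 6 arrays, and from 0 to 30 with 1 array left out (30 without replicate 1 of the 5000 lux group). The test against even growth with log2 dose called 3 without a filter on low values, from 0 to 20 with 1 array left out, and otherwise 0. For the difference between genotypes the count of 2 became 3 without a filter on low values (Abi3bp, Ccnc and Mapkapk3, with neither Tnfrsf12a nor Ednrb), 1 with the filter at log2 6, 1 with log2 of the intensity plus 16, 0 with array weights, 0 with the RPE level and 0 with the Eif2s3y level as a covariate, and from 0 to 28 with 1 wild-type array of the step left out (28 without replicate 3, 0 without replicate 1 or 2 of the 2500 lux group, and 0 without replicate 1 of the 5000 lux group). Leaving out 1 Nxnl1-/- array of the step gave 0, or 1 without replicate 2 at 2500 lux. It was 51 without the 2 arrays set apart. The Eif2s3y covariate and the omission of those 2 arrays and of Nxnl1-/- arrays were chosen after seeing the data.

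The RPE median step of -0.75 was -0.014 with the RPE level as a covariate, near 0 by construction because that level is a mean of RPE genes. It was -0.60 with log2 of the intensity plus 16, -0.59 with the crystallin level as a covariate, from -0.94 to -0.45 with 1 array left out, and -0.45 without the 2 arrays set apart. The light-repressed median was -0.25 without those arrays. The light-induced median ran from -0.11 to 0.27 over the alternatives, and was below 0 with 1 of 4 arrays left out. The spread between arrays, as the pooled SD of array medians, was 0.27 for the light-induced genes and 0.10 for the RPE genes. The mean RPE levels given above spread more, with an SD of 0.31 at 2500 lux and 0.16 at 5000 lux. For the mean level of the light-induced genes the SD was 0.35 at 2500 lux and 0.14 at 5000 lux. The crystallin median of 3.34 was 0.20 without replicate 2 of the 5000 lux group and 1.09 with the RPE level as a covariate. With the crystallin level as a covariate it was -0.18, near 0 by construction because that level is a mean of crystallin genes. The crystallin spread between arrays (4.29) comes from replicate 2 of the 5000 lux group, so it is no measure of stability. The cause of these shifts was not tested.

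Whether replicate numbers pair the arrays was left undecided: deviations from the group means of same-numbered arrays correlated at 0.21, -0.01 and 0.24. The best match at 5000 lux had the same number for replicates 1 and 3, and was replicate 1 for replicate 2. With the replicate block the step still had 0 probe sets called (2620 at an unadjusted p under 0.05), and the difference between genotypes 1 (Ednrb, with Tnfrsf12a no longer called). For named genes, 3239 alternative values moved by less than 1 SE and 253 by more, none with another call except Ddx41, Cpeb1, Setd5 and Ergic1, which passed without replicate 1 of the 5000 lux group.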
